A study of Mus musculus with 6 samples.

Results

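Ptprc, Lyz2, Ppbp, Aif1 and Adgre1 are genes whose products mark mature leukocytes and platelets, and they were followed here across 3 cultured mouse cell types. Every non-control probe whose deposited name maps to one of the 5 genes was taken, which gave 8 probes of 41006 on the array, and 5 genes of the 12323 that could be named. Ptprc, Ppbp and Aif1 had 1 probe each, Adgre1 had 2 and Lyz2 had 3. Each of the cell types was hybridized to 2 arrays: MAPC (multipotent adult progenitor cells), ESC (embryonic stem cells) and NS (neurospheres).

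MAPC were grown out of bone marrow in 5% oxygen and 2% serum with epidermal growth factor, PDGF-BB and leukemia inhibitory factor (LIF). Cells bearing CD45 or Ter119 were removed on a magnetic column at 4 weeks, the remainder was replated at 10 cells per well, and arrays were made beyond population doubling 80. Both MAPC arrays are titled mMAPC-1 and described as "MAPC clone 2 (high Oct4)", so the names differ in number but are the same on both arrays, which were taken as 1 clone. The labels name no strain for it. ESC were C57BL/6 cells in 15% serum with LIF, kept on irradiated embryonic fibroblasts and moved to feeder-free dishes ahead of RNA collection. NS were C57BL/6 neurospheres from E11.5 forebrain, grown with basic fibroblast growth factor and epidermal growth factor. Each cell type had its own medium, and its effect cannot be told apart from that of the cell type.

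Ptprc encodes CD45, a receptor tyrosine phosphatase carried by nearly all nucleated blood cells and the protein on which the marrow culture had been depleted. Lyz2 encodes the lysozyme of macrophages and granulocytes, Aif1 the calcium-binding protein Iba1 of macrophages and microglia, and Adgre1 the adhesion G protein-coupled receptor F4/80 of tissue macrophages. Ppbp encodes the platelet chemokine that is stored in alpha granules and made by megakaryocytes. The comparisons ask whether a culture that began as marrow, depleted of CD45+ cells, still gave higher mature blood cell signals than ESC and NS. These cell types did not come from marrow, but they were not shown to be free of blood cell RNA. In RNA from a whole culture, fewer cells of a type and less RNA per cell cannot be told apart.

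The probes are 60 bases long with 33.3% to 46.7% G and C, and they are shown because probes of the same gene differed in what they reported. For 6 of them the first 30 bases are given and for A_66_P109188 and A_66_P102593 all 60. Capitals mark AATAAA, the hexamer of the polyadenylation signal, which lies in 1 of the 8 probes and in 7.0% of all probes on the array.
Ptprc A_66_P138080: taaaatcccattgaaagtggattcagttgt
Lyz2 A_66_P127013: gtctctttctcactgtaggagtagatatga
Lyz2 A_66_P126294: cctgtgtgAATAAAaatacaagaactgctt
Lyz2 A_66_P109188: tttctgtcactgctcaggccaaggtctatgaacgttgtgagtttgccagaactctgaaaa
Aif1 A_66_P121912: gagcttctgatgacagcagcatggaaaaaa
Adgre1 A_66_P130825: ttgtgtttcctatgcactttcttgtggtgt
Adgre1 A_66_P102593: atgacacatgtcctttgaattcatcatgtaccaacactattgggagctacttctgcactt
Ppbp A_66_P105592: tgtcttgtttccaagcaacctttgcaacat

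On each array the Cy3-labelled sample competed with a Cy5-labelled RNA pool of 11 mouse cell lines, among them an alveolar macrophage line, a B-lymphocyte line and a T-lymphocyte line. That common pool shows whether a probe gives signal where RNA of blood cell lines is present. In the pool the signal of every one of the 8 probes was marked well above background on all 6 arrays. Its background-subtracted intensity was between 715 and 1219 for Ptprc, between 600 and 749 for Aif1, and between 67.6 and 119 for Ppbp. For Lyz2 it was 1429 to 1876, 679 to 996 and 178 to 351 on the probes A_66_P127013, A_66_P126294 and A_66_P109188. For Adgre1 it was 1573 to 1955 on A_66_P130825, over the 5 arrays whose spot was not marked as an outlier, and 85.9 to 166 on A_66_P102593. The mark alone does not show that a probe responds to blood cell RNA. The pool was dim on Ppbp, where its signal stood above 19.3% to 26.2% of all probes. On A_66_P102593 it stood above 23.8% to 32.6%. No megakaryocyte line is named above, so the pool says less about the Ppbp probe. Brightness also depends on the probe, so a level is compared below between arrays and not between genes.

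Over the whole array, 91.9% to 99.6% of probe spots were marked well above background in the sample channel, so the mark says little about whether a transcript was present. For that reason signals were also set against the 314 negative control spots, whose 95th percentile was 8.57 and 11.0 on the MAPC arrays, 6.13 and 18.2 on the ESC arrays and 15.1 and 9.39 on the NS arrays. Lists of known markers were read as a check of the labels. All 10 pluripotency genes were lower in MAPC than in ESC, and 9 of 10 were higher in ESC than in NS. For the 10 genes of neural progenitors, 9 stood lower in MAPC than in NS and 8 stood lower in ESC than in NS. The 6 measured endoderm genes, which are no blood markers, were all higher in MAPC than in ESC and than in NS. Across probes, which are not independent replicates, the arrays of a cell type correlated at 0.986 in MAPC, 0.979 in ESC and 0.988 in NS.

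**Figure D1:**
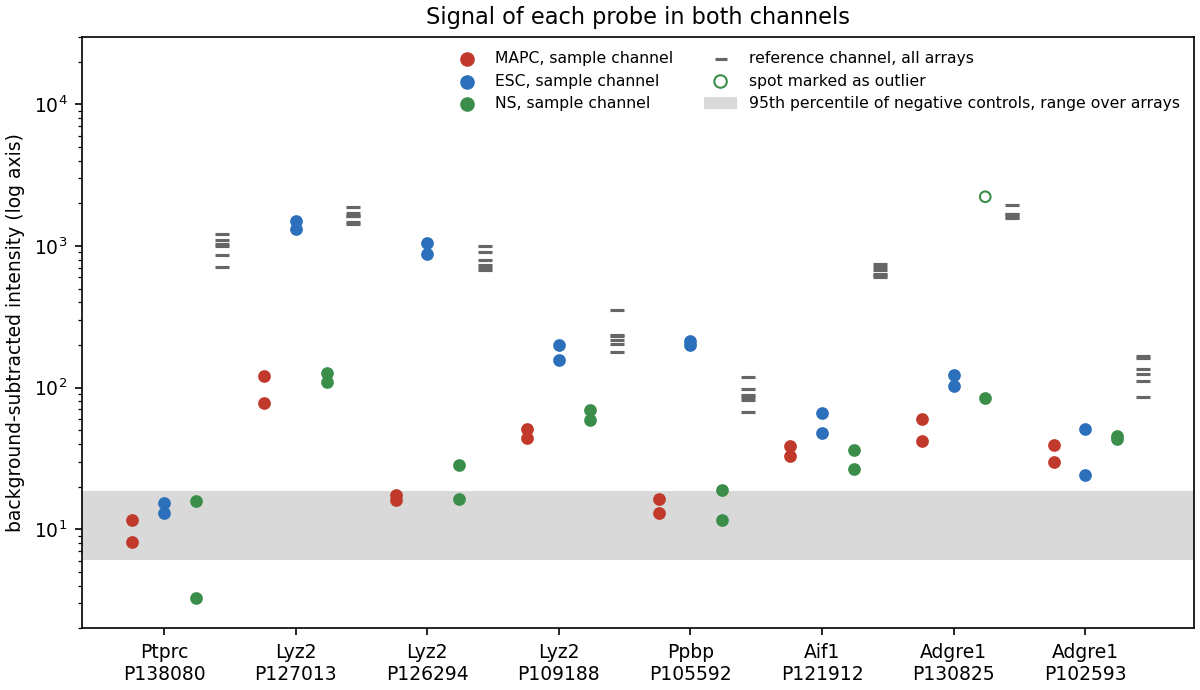
Background-subtracted intensity (log axis) of each of the 8 probes, with filled points for the sample channel of the 2 MAPC, 2 ESC and 2 NS arrays, dashes for the reference channel of the same arrays, and a grey band for the range over arrays of the 95th percentile of negative control spots. Ptprc lies in or under the band in all 3 cell types, Lyz2 and Ppbp stand far above it in ESC (Lyz2 A_66_P126294 at 872 and 1045), and the open circle is the NS spot of Adgre1 marked as an outlier (2225).

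Ptprc, the gene of CD45, was close to the background in all 3 cell types, and its level was not distinguishable between MAPC and either of the others. The sample-channel intensity of A_66_P138080 was 8.16 and 11.6 on the MAPC arrays, 13.01 and 15.3 on the ESC arrays and 15.8 and 3.26 on the NS arrays. The file's own mark put it well above background on 1 of 2 MAPC arrays, 2 of 2 ESC arrays and 1 of 2 NS arrays. Of the 314 negative control spots of the same array, 19 and 12 read at least as high on the MAPC arrays, 0 and 28 on the ESC arrays and 10 and 107 on the NS arrays. By the deposited ratio the sample gave 2.84% and 3.89% of the reference signal in MAPC, 3.07% and 3.37% in ESC and 5.11% and 1.40% in NS. No cell type thus reached more than a small share of the signal that the cell line pool gave on the same spot.

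After background correction, which adds an offset of 50 and so draws ratios of dim spots towards 0, the log2 ratio of sample to reference for Ptprc was -2.77 and -2.80 in MAPC, -3.03 and -3.10 in ESC and -2.67 and -3.13 in NS. The MAPC values lay above the ESC values and between the NS values. MAPC exceeded ESC by 0.29 ± 0.13 (log2 ± standard error, SE, n = 2 arrays each), which did not pass in limma's moderated test (adjusted p = 0.139, 95% interval -0.03 to 0.60). The threshold throughout is an adjusted p of 0.05, with Benjamini-Hochberg adjustment over all probes tested. The difference passed when MAPC and ESC were fitted without NS (adjusted p = 0.00999, range 0.00999 to 0.962 over the alternatives), and the NS arrays stood further apart on this probe than those of the other groups. In the sample channel alone the direction turned (-0.05). Against NS the MAPC difference was 0.12 (adjusted p = 0.521, interval -0.19 to 0.43), and it turned to -0.32 in the deposited series matrix. Without NS replicate 1 it was 0.35 (adjusted p = 0.00949), and without NS replicate 2 it was -0.12. In such a fit a cell type has 1 array, which is assumed to vary as the arrays of the other cell types do, and the remaining NS array is the one on which 107 negative control spots read at least as high. ESC minus NS was -0.17 (adjusted p = 0.407, interval -0.48 to 0.14), and the same left-out arrays gave 0.07 and -0.40 (adjusted p = 0.00620 for the second).

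**Figure D2:**
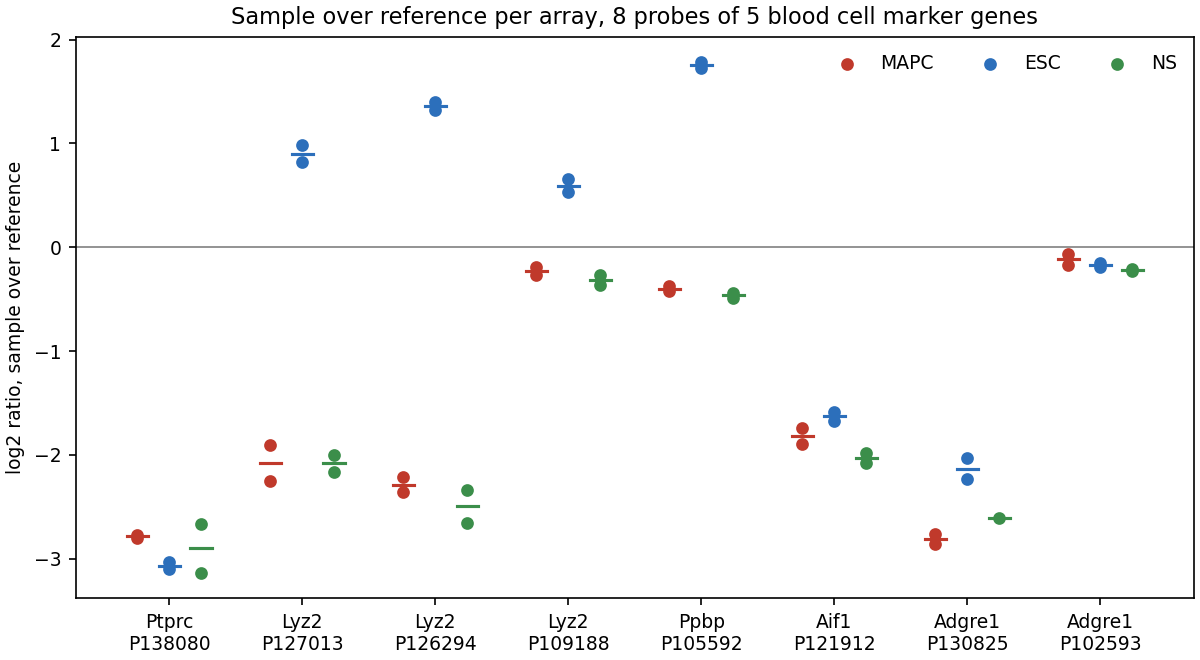
Log2 ratio of sample to reference for each of the 8 probes on every array, with 1 point per array (MAPC, ESC and NS from left to right within each probe) and a bar at the mean of the cell type. ESC stand apart on the 3 Lyz2 probes and on Ppbp (1.78 and 1.73, against -0.44 and -0.49 in NS). The means of MAPC and NS differ by at most 0.22 on every probe. On Aif1 their points do not overlap, and on Adgre1 A_66_P130825 NS has 1 point.

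Lyz2, the macrophage and granulocyte lysozyme, was lower in MAPC than in ESC on all 3 of its probes, and it did not differ detectably between MAPC and NS. On A_66_P127013 the sample-channel intensity was 78.1 and 122 in MAPC, 1308 and 1498 in ESC and 109 and 126 in NS. On A_66_P126294 it was 17.6 and 16.1 in MAPC, 872 and 1045 in ESC and 28.2 and 16.4 in NS. On A_66_P109188 it was 44.4 and 51.2 in MAPC, 157 and 201 in ESC and 69.8 and 59.1 in NS. The ESC arrays were above both other cell types on every probe, with no overlap.

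Set against the reference pool, ESC were the only cell type of the 3 above it on Lyz2. By the deposited ratio A_66_P126294 stood at 7.11% and 7.88% of the reference signal in MAPC, 256% and 271% in ESC and 9.47% and 5.04% in NS. The log2 ratios of that probe were -2.35 and -2.22 in MAPC, 1.33 and 1.40 in ESC and -2.33 and -2.66 in NS. On A_66_P127013 they were -2.25 and -1.90 in MAPC, 0.82 and 0.98 in ESC and -2.16 and -2.00 in NS. On A_66_P109188 they were -0.27 and -0.19 in MAPC, 0.65 and 0.53 in ESC and -0.36 and -0.27 in NS.

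In limma, MAPC minus ESC was -3.65 ± 0.11 on A_66_P126294 (adjusted p = 1.67e-07, 12.5-fold), -2.98 ± 0.12 on A_66_P127013 (adjusted p = 7.96e-07, 7.89-fold) and -0.82 ± 0.07 on A_66_P109188 (adjusted p = 4.04e-05, 1.77-fold). The direction was the same on all 3 probes but the size was not. The size also depended on the processing: over the alternatives the difference was between -5.14 and -1.89 on A_66_P126294, -3.38 and -1.91 on A_66_P127013 and -1.03 and -0.34 on A_66_P109188, past the threshold in 16 of 16 on each. ESC exceeded NS by 3.86, 2.98 and 0.91 on the probes in the same order, and each passed (adjusted p at most 2.06e-05). Intensities were extracted from the array images on 2 days according to the file headers, with replicate 1 of each cell type on one and replicate 2 on the other. Within these extraction days MAPC minus ESC on A_66_P126294 was -3.68 and -3.62, on A_66_P127013 -3.07 and -2.89, and on A_66_P109188 -0.93 and -0.71. ESC minus NS in the same days was 3.66 and 4.06, 2.98 and 2.99, and 1.02 and 0.80 on these probes.

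MAPC minus NS was 0.21 on A_66_P126294 (adjusted p = 0.155, 95% interval -0.04 to 0.46), 0.0047 on A_66_P127013 (adjusted p = 0.980, interval -0.28 to 0.29) and 0.09 on A_66_P109188 (adjusted p = 0.352, interval -0.07 to 0.25). The intervals leave room for a difference of up to about 0.46 log2 units, and none passed with all 6 arrays. Without NS replicate 1 the difference on A_66_P126294 was 0.37 and passed (adjusted p = 0.0163). Lyz1, the near-identical intestinal lysozyme gene that follows Lyz2 on its chromosome, had no named probe and is not analysed here. The share of Lyz1 transcripts in the Lyz2 signals was not tested.

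Aif1, the gene of Iba1, was low in all 3 cell types and differed between them by small amounts. Its sample-channel intensity was 38.5 and 32.8 in MAPC, 47.5 and 66.3 in ESC and 36.1 and 26.5 in NS, and at most 2 of the 314 negative control spots of an array read as high. The deposited ratio put it at 17.6% and 15.4% of the reference in MAPC, 19.4% and 23.5% in ESC and 14.2% and 10.8% in NS. The log2 ratios were -1.74 and -1.89 in MAPC, -1.67 and -1.58 in ESC and -1.99 and -2.08 in NS, so ESC were highest, MAPC in between and NS lowest, with no overlap.

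The neighbours MAPC and ESC did not pass the adjusted threshold, at -0.19 ± 0.07 (adjusted p = 0.0787), although the 95% interval of -0.36 to -0.02, which is not adjusted, leaves out 0. That difference passed with median centring (adjusted p = 0.0340) and without MAPC replicate 1 (0.0420), with a range of 0.0340 to 0.865 over the alternatives. MAPC exceeded NS by 0.22 ± 0.07 (adjusted p = 0.0443, 1.16-fold), the sole probe of the 8 that passed in this comparison, and by 0.25 and 0.18 within the extraction days. That call was lost in 8 of 16 alternatives (adjusted p from 0.0260 to 0.271), among them each fit without MAPC replicate 1 (0.226), NS replicate 1 (0.0698) or NS replicate 2 (0.214). ESC exceeded NS by 0.40 ± 0.07 (adjusted p = 0.00267), which was lost without background subtraction (0.0966) and in the sample channel alone (0.0781).

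Adgre1, the gene of F4/80, was lower in MAPC than in ESC on A_66_P130825, and no difference passed on its other probe. On A_66_P130825 the sample-channel intensity was 42.0 and 60.3 in MAPC, 102 and 123 in ESC and 85.1 on the first NS array. The second NS array read 2225, with 2860 in the reference channel. That spot was marked as an outlier in both channels and was left out, so the NS value of this probe rests on 1 array. The log2 ratios were -2.86 and -2.76 in MAPC, -2.23 and -2.03 in ESC and -2.61 in NS.

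MAPC minus ESC on A_66_P130825 was -0.68 ± 0.08 (adjusted p = 0.000733, 1.60-fold), with -0.63 and -0.73 within the extraction days. The call was lost in the sample channel alone (adjusted p = 0.0710) and with outlier spots kept (0.618). With that spot kept the difference stayed at -0.68. The spot lies on an NS array, which enters the spread of the joint fit but not this difference. With the single NS array, MAPC minus NS was -0.20 and did not pass (adjusted p = 0.169, interval -0.45 to 0.05), and ESC minus NS was 0.48 (adjusted p = 0.00978), where the NS array is assumed to vary as the MAPC and ESC arrays do. With the outlier spot kept, ESC minus NS turned to -1.24 (adjusted p = 0.366), and without background subtraction, with the deposited processed signals, with the series matrix and in the sample channel alone it did not pass.

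The second Adgre1 probe, A_66_P102593, had sample-channel intensities of 29.7 and 39.6 in MAPC, 24.2 and 51.0 in ESC and 43.5 and 45.6 in NS. Its log2 ratios were -0.17 and -0.06 in MAPC, -0.19 and -0.15 in ESC and -0.23 and -0.21 in NS, and the deposited ratio stood at 78.9% and 94.8% of the reference in MAPC, 73.4% and 84.9% in ESC and 76.8% and 78.6% in NS. The cell types lay close together on this dim probe and no comparison passed. The difference was 0.05 for MAPC minus ESC (adjusted p = 0.545), 0.10 for MAPC minus NS (adjusted p = 0.201) and 0.05 for ESC minus NS (adjusted p = 0.581). Its 95% intervals for the same comparisons were -0.08 to 0.19, -0.03 to 0.24 and -0.09 to 0.19. The interval for MAPC minus ESC does not reach the difference seen on A_66_P130825, so the probes of Adgre1 disagreed.

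Ppbp, the platelet chemokine, was lower in MAPC than in ESC and did not differ detectably between MAPC and NS. Its sample-channel intensity was 13.1 and 16.5 in MAPC, 198 and 212 in ESC and 18.9 and 11.53 in NS. Of the 314 negative control spots, 3 and 1 read at least as high on the MAPC arrays, 0 and 0 on the ESC arrays and 3 and 11 on the NS arrays. The probe was marked well above background on 2 of 2 MAPC and 1 of 2 NS arrays. By the deposited ratio it stood at 44.6% and 52.4% of the reference in MAPC, 530% and 478% in ESC and 47.7% and 40.0% in NS. ESC thus gave more Ppbp signal than the pool on both arrays, and MAPC and NS less. The pool itself was dim on this probe (67.6 to 119), so these percentages rest on a small denominator.

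The log2 ratios of Ppbp were -0.42 and -0.38 in MAPC, 1.78 and 1.73 in ESC and -0.44 and -0.49 in NS. MAPC minus ESC was -2.15 ± 0.05 (adjusted p = 8.70e-08, 4.44-fold), and ESC minus NS was 2.21 ± 0.05 (adjusted p = 9.00e-08, 4.64-fold). Within the extraction days MAPC minus ESC was -2.20 and -2.10 and ESC minus NS 2.22 and 2.21. MAPC minus NS was 0.06 (adjusted p = 0.400, 95% interval -0.06 to 0.19). The offset shapes these sizes on so dim a spot, and over the alternatives MAPC minus ESC was between -3.38 and -0.77, past the threshold in 16 of 16.

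**Figure D3:**
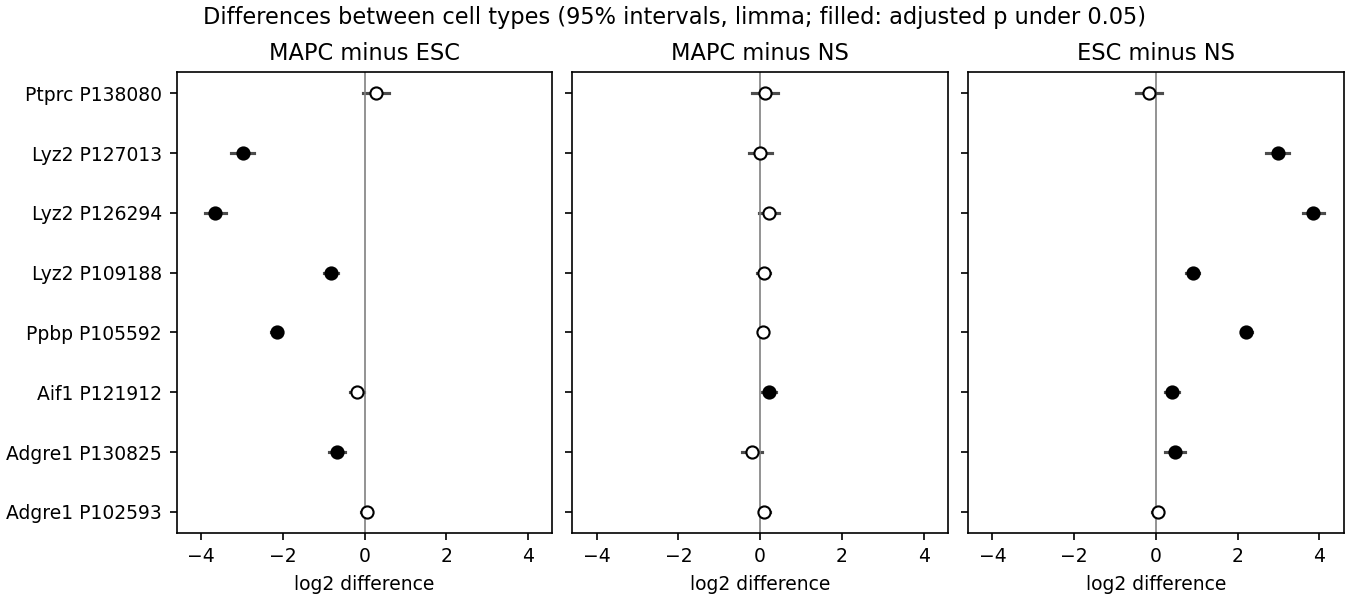
Log2 difference between cell types for each of the 8 probes with its 95% interval from limma, in 3 panels, with MAPC minus ESC at the left, MAPC minus NS in the middle and ESC minus NS at the right. Filled points passed an adjusted p of 0.05: 5 of 8 for MAPC minus ESC, 1 of 8 for MAPC minus NS and 6 of 8 for ESC minus NS.

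Counted together, 5 of the 8 probes were lower and 0 higher in MAPC than in ESC, where 38.5% of all probes tested passed, 16.3% higher and 22.2% lower. Between MAPC and NS 1 of 8 passed, higher, against 44.2% of all probes in either direction, 21.8% higher and 22.4% lower. With the extraction day as a block, which is the same split as the replicate number, 2 of 8 passed, the other being Adgre1 A_66_P130825 (-0.28, adjusted p = 0.0192). Between ESC and NS 6 of 8 were higher and 0 lower, against 38.7% in either direction, 20.4% higher and 18.3% lower, and 1 of the 6 is Adgre1 A_66_P130825 with its single NS array. Every probe of the 8 had passed the filter for testing. The 3 Lyz2 probes share a gene and the comparisons share arrays, so neither the probes nor the comparisons are independent. Among all probes tested, 0.454% differed at least as much between MAPC and ESC as Lyz2 A_66_P126294, and 2.19% as much as Ppbp.

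Lyz2 and Ppbp were both higher in ESC than in MAPC and NS, and their promoters are shown. Whether the genes share control was not tested. Each promoter is given as the 250 bases before the RefSeq start (build GRCm38.p6) on the gene's strand. Of the 5 genes 4 had a promoter in the RefSeq table used, with 2 for Ptprc. Motifs were searched on both strands: GAGGAA, the core of PU.1-type Ets sites, AGATAA for Gata factors, TGTGGT for Runx factors, TTGCNNAA for C/EBP factors and TATAAA for the TATA box. Capitals mark the matches. The Lyz2 line is chr10:117282273-117282522 (- strand) and the Ppbp line chr5:90768268-90768517 (+ strand).
Lyz2: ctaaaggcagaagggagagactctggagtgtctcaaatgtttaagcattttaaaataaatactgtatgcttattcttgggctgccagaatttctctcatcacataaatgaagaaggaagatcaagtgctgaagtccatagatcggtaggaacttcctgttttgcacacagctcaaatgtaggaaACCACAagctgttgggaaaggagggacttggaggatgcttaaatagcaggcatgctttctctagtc
Ppbp: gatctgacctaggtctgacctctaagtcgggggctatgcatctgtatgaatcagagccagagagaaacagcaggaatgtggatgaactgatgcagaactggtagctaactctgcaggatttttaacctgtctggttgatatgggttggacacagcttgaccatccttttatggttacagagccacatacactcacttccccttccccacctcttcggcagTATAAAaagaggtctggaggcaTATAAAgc
Lyz2 held 1 match, to TGTGGT on the opposite strand and 66 bases before the start, and 14.0% of the 32851 promoters in the table hold that motif. Ppbp held 2 matches to TATAAA, 30 and 8 bases before the start, a motif in 12.4% of promoters. The Ets, Gata and C/EBP motifs occur in 23.3%, 10.0% and 9.6% of promoters and in neither of these windows. The Aif1 window held GAGGAA 7 bases before the start, and the windows of Ptprc held AGATAA (25 bases before) in one and GAGGAA and TATAAA (158 and 187 bases before) in the other.

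Next to Ppbp on the chromosome lies Pf4, the gene of platelet factor 4, which is stored in the same granules. Pf4 intensity was 40.0 and 38.6 in MAPC, 105 and 308 in ESC and 101 and 81.8 in NS. It was lower in MAPC than in ESC (log2 difference -1.31 ± 0.31, SE, adjusted p = 0.0107), and the ESC arrays stood far apart. MAPC minus NS was -0.66 (adjusted p = 0.126) and ESC minus NS 0.65 (adjusted p = 0.146). The reference pool gave 5751 to 7086 on this probe, so no cell type came near it.

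To see where other blood genes stood, 153 marker genes of leukocytes, macrophages, microglia, granulocytes and mast cells, platelets, red cells and lymphocytes were counted, each by its brightest probe. Of these 121 had a named probe, 118 were tested, and 113 remained without the 5 genes. Set against ESC, 38 of the 113 were lower in MAPC and 7 higher (median log2 difference -0.05), where 50.5% of all named genes passed, 29.4% lower and 21.1% higher. Between MAPC and NS 13 were lower and 16 higher (median 0.04), where 55.2% of named genes passed, 26.4% lower and 28.8% higher. Between ESC and NS 34 were higher and 6 lower (median 0.08), where 51.1% passed, 29.5% higher and 21.7% lower. Over all named genes the medians were -0.01, 0.04 and 0.03 in these comparisons. The shares over all named genes are also the background for each list below. The MAPC and NS split depended on the scaling: over all 118 genes it was 17 higher and 13 lower, and 10 higher and 13 lower with median centring in place of loess.

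The pan-leukocyte list had no gene higher in MAPC than in ESC and 9 of 19 lower, with a median of -0.27. Within the extraction days the median was -0.19 and -0.33. Cd53, a tetraspanin of leukocytes, was lower (-1.47 ± 0.13 log2 units, adjusted p = 6.32e-05), with intensities of 27.1 and 35.3 in MAPC, 209 and 156 in ESC and 49.7 and 62.8 in NS. Arhgdib, which is abundant in blood cells, was lower (-1.23), as was Laptm5, a lysosomal protein of blood cells (-1.14). Itgb2, the shared chain of the leukocyte integrins, did not pass (-0.03). Between MAPC and NS 2 of the 19 were higher and 2 lower: the phosphatase Ptpn6 (0.80) and Was (0.18), and Cd37 (-0.41) and Lsp1 (-0.29). The median log2 ratio to the reference over the 19 genes was -1.28 and -1.19 in MAPC, -1.02 and -0.85 in ESC and -1.50 and -1.35 in NS.

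Of 24 tested macrophage genes, Lyz2, Aif1 and Adgre1 among them, 12 were lower and 2 higher in MAPC than in ESC (median -0.28, within the days -0.22 and -0.38). Lgals3, the lectin galectin-3, was lower (-2.34 ± 0.19, adjusted p = 4.11e-05). Among those higher was the costimulatory ligand Cd86, by 0.29. Spi1, which encodes the myeloid transcription factor PU.1, did not pass (0.10), nor did the adaptor Tyrobp (0.01) or the integrin chain Itgam (0.06). Between MAPC and NS 6 were higher and 3 lower (median 0.04). Lgals3 was higher by 1.06 and Fcgr3, an Fc receptor, by 0.34, and the endotoxin receptor Cd14 (-0.46) and the transcription factor Irf8 (-0.35) were lower. Cd68 and Csf1r had no named probe and are not analysed here. Of the 9 microglia genes 4 were lower and 1 higher in MAPC than in ESC, and 4 lower and 2 higher in MAPC than in NS. The leading ones were Tmem119 (-1.47) and Olfml3 (-1.22) against ESC, and Olfml3 (-1.34) and the purinergic receptor P2ry12 (-0.48) against NS.

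Platelet genes did not follow Ppbp as a list. Of 16 tested, 4 were lower and 2 higher in MAPC than in ESC (median 0.07), and 1 was higher in MAPC than in NS (median 0.07). Itga2b, the integrin chain CD41, was at -0.23 against ESC and -0.25 against NS and Gp9 at 0.12 and 0.10, and neither passed. The ATP-gated channel P2rx1 was higher in MAPC than in ESC by 0.26.

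The other blood lineages are read against the 29.4% of all named genes that were lower and the 21.1% that were higher in MAPC than in ESC. Of 18 granulocyte and mast cell genes 4 were lower and 1 higher in MAPC than in ESC, led by the basophil protease Mcpt8 (-2.00) and the gelatinase Mmp9 (-0.57) downwards and eosinophil peroxidase, Epx, upwards (0.37). Myeloperoxidase, Mpo, did not pass (0.09). Of 9 red cell genes 2 were lower and 1 higher, the last being the transcription factor Klf1 (0.30). Of 13 T and NK cell genes 2 were lower, led by the kinase Lck (-1.08), and Cd3e did not pass (-0.02). Of 11 B cell genes 4 were lower, led by the adaptor Blnk (-1.23) and the surrogate light chain Vpreb1 (-1.04), and Cd79a did not pass (0.11). Between MAPC and NS these 4 lists, with 18, 9, 13 and 11 genes tested, gave 7 genes higher and 4 lower. Over all named genes 28.8% were higher and 26.4% lower in that comparison.

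**Figure D4:**
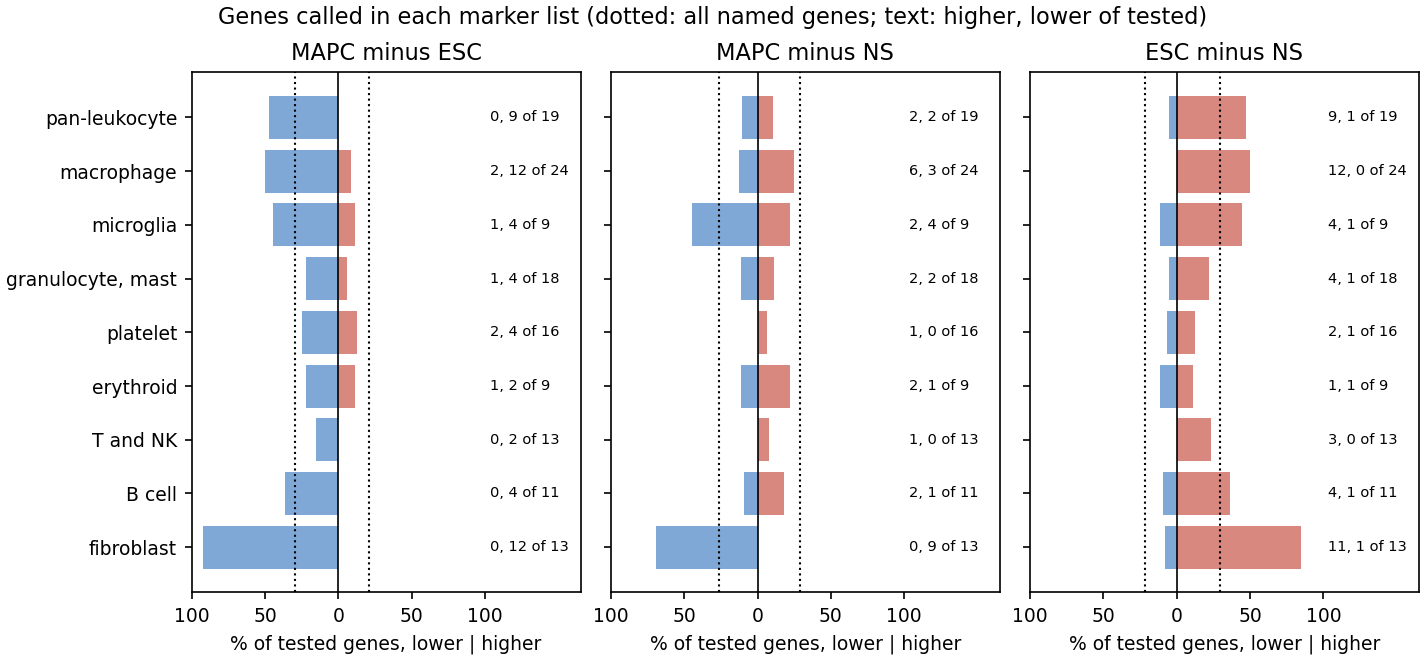
Share of tested genes called lower (blue, to the left) and higher (red, to the right) in each marker list in a panel per comparison, with dotted lines at the shares over all named genes and the counts (higher, lower of tested) at the right. Fibroblast genes move with ESC more than any blood list shown: 12 of 13 were lower in MAPC than in ESC.

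Markers of fibroblasts, the cells on which ESC had been kept, were mostly higher in ESC. Many also differed between MAPC and NS. Of 13 measured, 12 were lower and 0 higher in MAPC than in ESC (median -2.12), 9 were lower in MAPC than in NS (median -0.32), and 11 were higher and 1 lower in ESC than in NS (median 0.95). Their summed intensity was 1875 and 2071 in MAPC, 20617 and 18745 in ESC and 8889 and 10063 in NS. Without Fbln2, the gene with the highest signal, it was 1233 and 1586 in MAPC, 13654 and 9965 in ESC and 2627 and 3030 in NS. Col1a1, the chain of type I collagen, was lower in MAPC than in ESC (-2.37 ± 0.06, adjusted p = 1.11e-07). Postn, a matrix protein of fibroblasts, had intensities of 8.03 and 9.99 in MAPC, 8032 and 4415 in ESC and 319 and 359 in NS. Neither MAPC array read it well above background. It was at least 80.0-fold lower in MAPC than in ESC (adjusted p = 2.51e-07) and at least 5.75-fold lower than in NS (adjusted p = 1.74e-05). Such bounds set the mean of the brighter group against the higher of the lowest well-measured signal and the dim probe's own. The part of feeder cells, and of blood cells among them, in the ESC levels of Lyz2 and Ppbp was not tested.

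Among tested named genes with a range of at least 1 log2 unit, the 3 whose centred log2 ratios lay nearest to Lyz2 A_66_P127013 over the 6 arrays were Gdf3, Kirrel2 and Lox. Their root mean square distances were 0.117, 0.126 and 0.135 log2 units. Gdf3 is a growth factor of the pluripotency list and Lox a collagen crosslinking enzyme of the fibroblast list. Nearest to Ppbp were Sec14l4, Ltbp2 and Pla2g1b, at 0.0211, 0.0365 and 0.0434. These are descriptions over 6 arrays that split into 3 cell types. The ratios of Ptprc and Aif1 ranged over 0.47 and 0.49 log2 units in all, less than any candidate, and their nearest genes lay 0.268 and 0.211 away. Adgre1 was left out of this comparison because A_66_P130825, the probe used for it, lacks 1 array.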

How the data were processed

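RNA of MAPC, ESC and NS was measured on 6 two-colour Agilent arrays, 2 biological replicates per cell type per the labels. All samples were labelled with Cy3 and the reference with Cy5, without dye swap, so a dye effect specific to a probe stays in every ratio and cancels in differences between cell types. Separate cultures are not described, and p-values measure the spread between these arrays. The deposited scanner files give mean and background intensity of each spot in both dyes, and the headers name Agilent Feature Extraction, A.7.5.1. A processed intensity and a log10 ratio of reference to sample, which was turned round here, were deposited beside them. The deposited series matrix holds log10 values. Its centring stays unknown and it served as an alternative only.

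Intensities were corrected by normexp (offset 50) and normalized by loess within arrays in limma 3.58.1 (R 4.3.3). Control and outlier-marked spots were left out and spots of a probe averaged. Testing required that some cell type had a probe's sample signal marked well above background on its 2 arrays (39403 of 41006 probes). A single fit of 6 arrays (lmFit, eBayes, two-sided, 3 residual degrees of freedom) gave the 3 comparisons. No depth applies to arrays, and their number limits the precision. Genes were named through accessions in a RefSeq table (GRCm38.p6) for 15294 probes, by symbol for 15 and older symbol for 72, and 25625 stayed unnamed. The lists were pan-leukocyte, macrophage, microglia, granulocyte and mast cell, platelet, erythroid, T and NK cell, B cell, fibroblast, pluripotency, neural and endoderm. Named are all probes of the 5 genes, up to 2 called genes per list, direction and comparison with the largest difference and no overlap, and a fixed set of well-known markers. A few genes that this rule names are not reported here. The genes and lists were chosen with earlier results of these data known. Alternatives covered background correction, normalization, the channel used, filters, the value table, blocks and left-out arrays.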

Additional observations from a re-analysis of the deposited data

How the results depend on the processing

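The calls on the 3 Lyz2 probes and Ppbp passed in MAPC minus ESC and in ESC minus NS under all 16 alternatives, with the direction kept. The 16 are not all distinct. Leaving out 1 array of the cell type not compared gave the same result as fitting the 2 compared cell types alone. The 2 blocks also gave the same result as each other. Over the MAPC minus ESC alternatives Lyz2 was between -5.14 and -1.89 on A_66_P126294, -3.38 and -1.91 on A_66_P127013 and -1.03 and -0.34 on A_66_P109188, so sizes depend on the background correction. The count of probes of the 5 genes past the threshold in MAPC minus NS was 1 (Aif1), and 0 without background subtraction, with the deposited processed signals, in the sample channel alone, with median centring and with the series matrix. It was 2 with the replicate number as a block and with the extraction day as a block, which are the same split, where Adgre1 A_66_P130825 passed (-0.28, adjusted p = 0.0192), and 0 to 2 when an array was left out (0 without MAPC replicate 1 or NS replicate 2, 2 without NS replicate 1). The replicate block left the counts for the other comparisons at 5 and 6. Deviations of replicate 1 correlated at 0.0941 between MAPC and ESC, 0.156 between MAPC and NS and 0.207 between ESC and NS, so the shared numbers were not taken as pairs. ESC minus NS gave 44 genes of the blood cell lists past the threshold and 27 in the sample channel alone.

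Of the alternative values of single probes 341 kept direction and call, 16 lost the call, 10 gained it and 15 changed sign, 1 of them of a difference past the threshold. In MAPC minus ESC these were Ptprc in the sample channel (-0.0466) and Adgre1 A_66_P102593 with median centring (-0.0204), the latter probe ranging over -0.0017 to 0.11 with an array left out. In MAPC minus NS, Lyz2 A_66_P127013 was -0.0257 with the processed signals, -0.0900 with median centring, -0.0257 with the matrix and -0.17 to 0.18 with an array left out. Ptprc was -0.32 with the matrix and -0.12 to 0.35 with an array left out. In ESC minus NS, Ptprc was 0.27 with the processed signals, 0.13 in the sample channel and -0.40 to 0.0663 with an array left out, Adgre1 A_66_P102593 was -0.14 in the sample channel, and A_66_P130825 was -1.24 with outlier spots kept. The cause of these changes was not tested, other than the last, which is the single kept spot. Ptprc and Ppbp signals in MAPC and NS lie near the background, which limits what their ratios can show, and each cell type rests on 2 arrays and MAPC on what was taken as 1 clone.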
